A study of Mus musculus with 4 samples.

Results

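The 10 immediate early genes examined in mouse liver were taken by name: Fos, Fosb, Jun, Junb, Jund, Egr1, Ier2, Atf3, Myc and Cyr61. A gene was counted as present when its symbol equalled the name of a row of the authors' deposited RNA-Seq table. Of these 10 genes, 8 had a row among the 7000 genes listed, and Fosb and Myc had none, also under older symbols. The level used for each gene is the authors' mean over all 4 livers, in counts per 1000000 mapped reads (CPM), so it describes both diets together.

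The livers came from male wild-type FVB/N mice that were given a selenium-deficient diet for 6 weeks from weaning, at 3 weeks of age. In 2 mice the diet had no added selenium (0 Se, mice 1 and 2), and in 2 mice it was supplemented with 0.1 ppm Se as sodium selenite (0.1 Se, mice 4 and 5). The livers were excised after euthanasia with CO2 and frozen, and their total RNA, depleted of ribosomal RNA, was sequenced. The deposited table holds one mean for each gene and no value of a single mouse, so the values below carry no spread and no test, the depth of each library is unknown, and differences between genes cannot be set against the variation between mice. The fold changes and p-values between the diets in the same table are the authors' own results and were not used here, so the effect of selenium on these genes was not analysed here.

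Immediate early genes are transcribed within minutes of a stimulus, from transcription factors already present in the cell and without new protein synthesis. Fos and Jun proteins pair through leucine zippers to form the AP-1 transcription factor. Atf3 is a related leucine zipper factor, and Egr1 and Myc are DNA-binding factors of other families. In liver many of these genes are known for their rapid induction after injury, partial hepatectomy and handling of the tissue, and transcripts so induced are typically short-lived. Jund is known instead for steady expression in resting cells.

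Whether a gene has a row does not follow from its abundance alone. Among 6 hepatocyte genes looked up to check the tissue, Apoa1, Fgb and Serpina1a had means of 7504, 7700 and 2386 CPM and encode plasma proteins that hepatocytes secrete, while Alb, Ttr and Cps1, which hepatocytes are known to express strongly, had no row. The 3 cholangiocyte and 2 red cell genes had none either. The missing rows of Fosb and Myc were therefore not read as a low level, and the reason for them was not tested. The 7000 rows sum to 647615 CPM, which is 64.8% of the 1000000 that CPM is counted per. The means were used as the authors made them, so this sum is not a measured share of the mapped reads.

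Several regulatory sequences are known to link signalling to the transcription of immediate early genes. They were looked for in the RefSeq promoter sequences, which hold 7 of the 10 genes. Cyr61 was found there under its current symbol, Ccn1, and Egr1, Ier2 and Myc had no entry. Each of the 7 sequences matched 1 place on its chromosome in NCBIM37, the assembly that mm9 names. Of 8 motifs, TGACG on either strand, the core of the cAMP response element, and the GC box were each found in 5 of the 7. The last 120 bases before the annotated start are shown for the 5 genes that hold it within 250 bases, with TGACG or its reverse complement and any TATA box in capitals.

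Fos, chr12:86814720-86814839, plus strand: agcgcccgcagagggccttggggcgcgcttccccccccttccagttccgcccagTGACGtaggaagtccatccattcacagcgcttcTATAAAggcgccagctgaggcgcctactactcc
Fosb, chr7:19895395-19895514, minus strand: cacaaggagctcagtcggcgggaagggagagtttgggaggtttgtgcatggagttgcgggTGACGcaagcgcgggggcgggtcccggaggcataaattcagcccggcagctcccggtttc
Junb, chr8:87502648-87502767, minus strand: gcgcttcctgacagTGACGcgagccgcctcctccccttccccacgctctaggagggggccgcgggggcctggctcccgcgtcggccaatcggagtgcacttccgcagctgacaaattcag
Atf3, chr1:193007213-193007332, minus strand: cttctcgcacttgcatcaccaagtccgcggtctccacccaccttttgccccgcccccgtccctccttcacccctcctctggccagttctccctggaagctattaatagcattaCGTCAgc
Cyr61, chr3:145312950-145313069, minus strand: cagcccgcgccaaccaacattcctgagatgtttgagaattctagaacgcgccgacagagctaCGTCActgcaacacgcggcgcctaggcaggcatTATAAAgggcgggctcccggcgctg

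Within 250 bases, TGACG lay in 5 of 7 promoters (71.4%), against 17.8% of the 32851 promoters in the RefSeq sequences and 26.2% of the 6664 promoters of genes with a row. Fos held it at 2 places, at -129, upstream of the bases shown, and at -66, counted from the start, and the site nearest a start was that of Atf3, at -7 on the strand opposite to the gene. The RefSeq start used here equals the GENCODE start of the gene in 5 of the 7 genes. In Atf3 it lies 7 bases downstream of the GENCODE start, so the site at -7 is within the GENCODE mRNA and not before it, and in Junb it lies 30 bases upstream. In Fosb and Cyr61 it began at -60 and -58. The TATA box TATAAA was present in Fos, at -33, and in Cyr61, at -25, and in none of the other 5 genes, against 12.4% of all promoters and 6.63% of those of genes with a row. The GC box GGGCGG was found in 5 of 7, in Fos, Fosb, Jun, Atf3 and Cyr61, against 32.7% of all promoters and 56.6% of those of genes with a row. These promoters had a median GC content of 61.2%, from 47.6% to 68.8%, above the median of all promoters at 52.4%, and the part of GC content in these shares was not tested. Jund had the lowest GC content. Its annotated mRNA has 1319 bases before the coding sequence, more than any other of the genes examined. Whether Jund has another start nearer its coding sequence was not tested, so its window may not hold its main promoter.

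**Figure D1:**
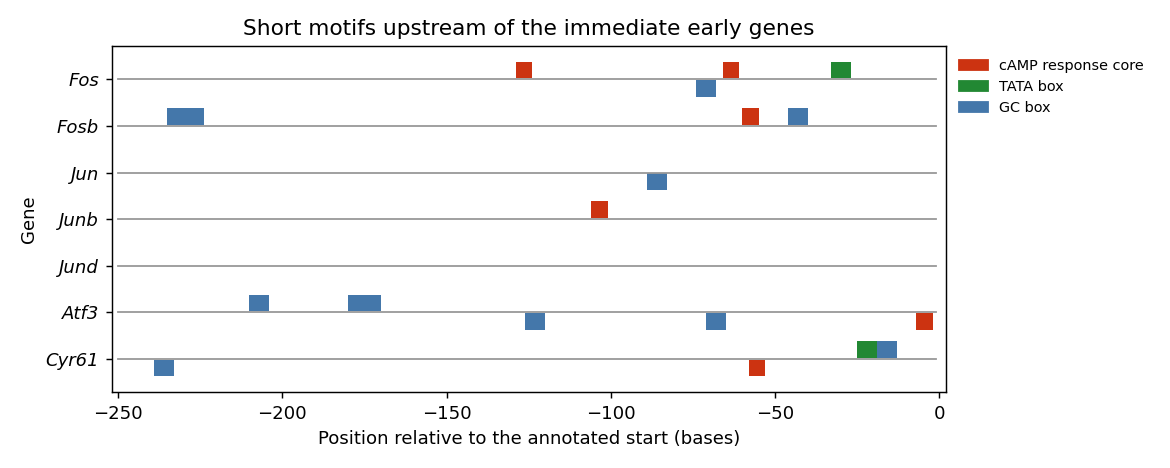
Positions of 3 short motifs in the 250 bases before the annotated start of 7 genes, in bases from the start, with boxes above the line for the gene's own strand and below it for the opposite strand. The core TGACG is seen in Fos, Fosb, Junb, Atf3 and Cyr61, TATAAA only in Fos and Cyr61, and the window of Jund, before its annotated start, holds none of the 3.

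The full cAMP response element TGACGTCA, the AP-1 site TGANTCA, the Ets site CCGGAA, the E-box CACGTG and the CArG box, to which serum response factor binds, were each absent from all 7 windows. Over all promoters the shares were 1.55% for TGACGTCA, 6.75% for TGANTCA, 12.0% for CCGGAA, 6.02% for CACGTG and 1.47% for the CArG box. Over the promoters of genes with a row they were 2.55%, 4.73%, 21.0%, 8.06% and 1.14% in the same order. TGACG is part of TGACGTCA, so each copy of the longer motif would also count as the shorter one. Only exact matches were counted, so variants of these motifs are not excluded. Jun, for example, holds TGACATCA, which differs from TGACGTCA by a single base. A match of letters does not show that a factor binds there, and sites farther from the start were not searched.

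Of the 3 Jun genes, Jund and Junb had the highest levels of the 8 genes. Jun lay close to Cyr61 in CPM, at 9.45 against 9.88, and their order depended on how length was treated. The Jun genes encode the AP-1 subunits that can pair with each other or with Fos proteins, and all 3 lie in a single exon, Jun on chromosome 4 of NCBIM37 from 94715725 to 94718913, Junb on chromosome 8 from 87500811 to 87502617 and Jund on the same chromosome from 73221638 to 73224515. Jund, the member of the family known for steady expression in resting cells, had a mean of 28.2 CPM, and Junb one of 22.1 CPM. Jun had 9.45 CPM. Together the 3 genes made up 59.8 of the 83.2 CPM of the 8 genes with a row, or 71.8%.

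Divided by mRNA length, to compare genes with each other, the order of the first 2 changed. Whether the counted reads cover whole mRNAs or only coding sequences is not stated. Per kilobase of coding sequence, Jund stood above Junb, Jun above Cyr61 and Atf3 above Fos. The levels per kilobase below are per kilobase of mRNA. Junb, with an mRNA of 1840 bases, had 12.0 CPM per kilobase, and Jund, with 2878 bases, had 9.81 CPM per kilobase, a ratio of 1.22. Jun, with 3187 bases, had 2.97 CPM per kilobase, so that Junb was 4.04-fold and Jund 3.31-fold higher than Jun on this scale. Of the other genes with a row, 66.7% had a lower level per kilobase than Junb, 62.0% a lower one than Jund and 31.8% a lower one than Jun. Junb and Jund were the only 2 of the 8 genes above the median of all rows, 6.19 CPM per kilobase. Why some genes have no row is unknown, so these positions hold among the listed genes and not among all liver genes.

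**Figure D2:**
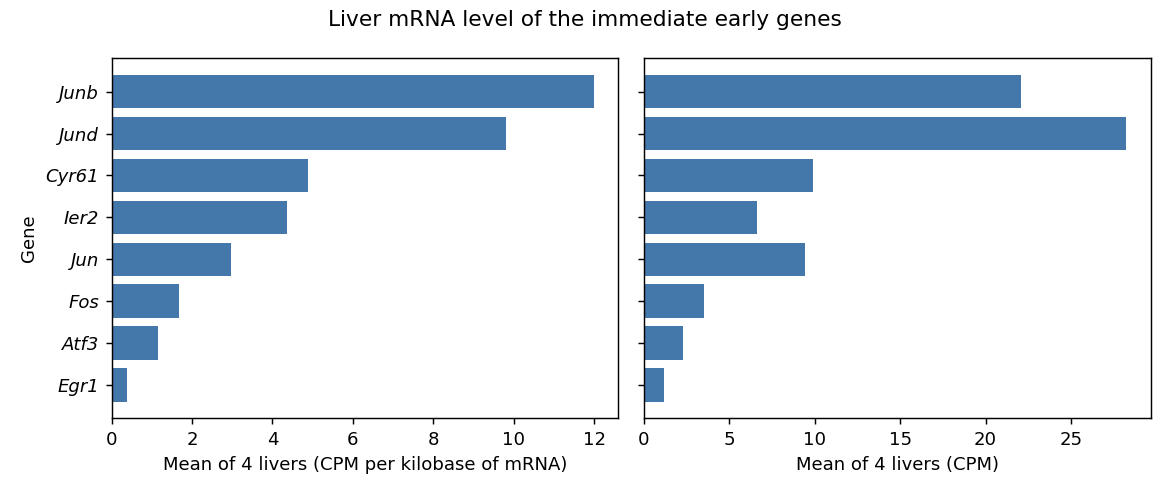
Mean liver level of the 8 immediate early genes with a row, as CPM per kilobase of mRNA on the left and CPM on the right, over the 4 livers together and with no error since there is 1 value per gene. Junb and Jund stand above the others on both scales, and Egr1 is lowest on both.

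Cyr61 and Ier2 lay between Jund and Jun per kilobase of mRNA. Cyr61, which encodes a secreted matricellular protein rather than a transcription factor and is a known target of the Yap and Tead factors, lies on chromosome 3 from 145309935 to 145312949. It had a mean of 9.88 CPM, or 4.87 CPM per kilobase, and 43.6% of the other genes lay below it. Ier2, which encodes a small nuclear protein of 221 residues, lies in a single exon on chromosome 8 from 87185230 to 87186751. Its mean was 6.63 CPM, or 4.35 CPM per kilobase. Ier2 was thus above Jun per kilobase, by 1.47-fold, but below it in CPM, since its mRNA of 1522 bases is the shortest of the 8.

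Fos, Atf3 and Egr1 had the lowest means of the 8 genes. Since each mean pools both diets, the order within either diet can differ from the order given here and was not analysed. Fos, on chromosome 12 from 86814840 to 86818223, had a mean of 3.49 CPM over the 4 livers and 1.67 CPM per kilobase, with 20.7% of the other genes below it. The level of Jun was 1.78-fold that of Fos per kilobase, and that of Junb 7.18-fold. Atf3, a stress-induced factor of the Atf and Creb family, lies on chromosome 1 from 192994175 to 193007219. It had 2.30 CPM and 1.16 CPM per kilobase.

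Egr1, a zinc finger factor that responds to growth factors, lies on chromosome 18 from 35020861 to 35024638 and had 1.17 CPM, or 0.382 CPM per kilobase. Of the other genes with a row, 187 (2.67%) were lower per kilobase and 70 (1.0%) were lower in CPM. The 8 genes therefore spanned a 31.4-fold range per kilobase, from Egr1 to Junb. In CPM the range was 24.1-fold, from Egr1 to Jund. The mean of Egr1 stands close to the authors' filter of 1 CPM, and 19 of the 7000 rows have a mean under 1 CPM.

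**Figure D3:**
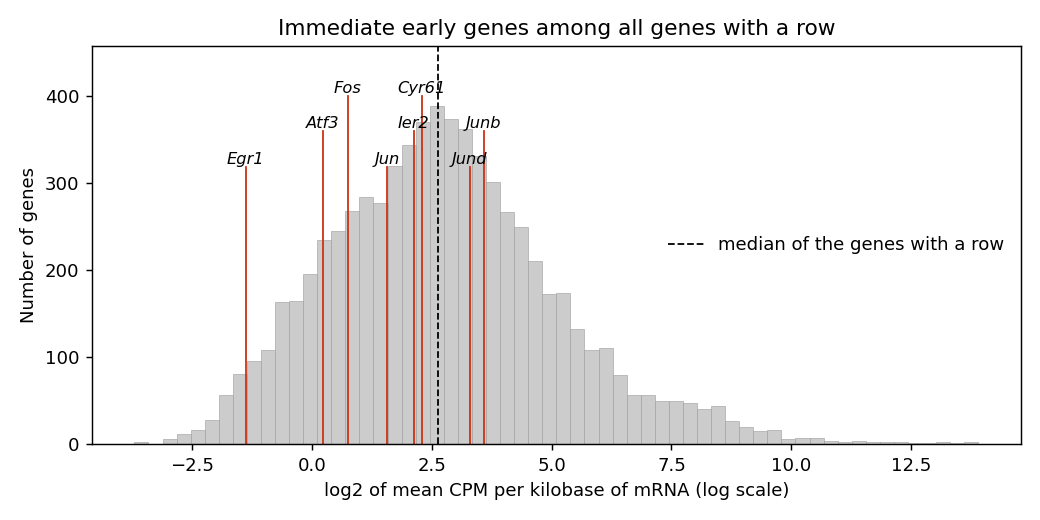
Number of genes against the log2 of the mean CPM per kilobase of mRNA for all 7000 rows in grey, with red lines at the 8 immediate early genes and a dashed line at the median of all rows. Of the 8 genes, 6 lie to the left of the median and only Junb and Jund to its right.

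In the annotation of NCBIM37 used here (GENCODE vM1), Jun, Jund and Egr1 are each overlapped by a gene on the opposite strand, BC042782, Gm11175 and Gm17507. The libraries keep the strand of the RNA, but whether the alignment to mRNAs used it is not stated in the methods or labels, so reads of these pairs may not have been told apart. The other 7 genes were overlapped by none.

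The annotated mRNAs of these genes have few exons. Jun, Junb, Jund and Ier2 have 1 exon, Egr1 has 2, Myc 3, Fos, Fosb and Atf3 4 each, and Cyr61 5. Over the 5995 genes with a row whose annotated mRNA lies within 10% of the deposited length, the median was 10 exons, and 1.37% had a single exon, while 25.2% had 5 exons or fewer. The deposited lengths of the 8 genes differed from the annotated ones by at most 33 bases. The coding sequences ran from 546 bases in Atf3, which gives 181 residues, to 1602 bases in Egr1, which gives 533. Fos and Fosb encode 380 and 338 residues, the 3 Jun proteins 334, 344 and 341, Cyr61 379 and Myc 454.

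The pentamer ATTTA in the 3' untranslated region is the core of the AU-rich elements through which such transcripts are known to be degraded. It occurred in 9 of the 10 genes, all but Ier2, against 68.5% of 5726 genes with a row and a 3' untranslated region of at least 100 bases. Cyr61 held 5 copies in 695 bases, Fos 4 in 815, Jun 4 in 1233 and Atf3 3 in 1186. Junb, Egr1 and Myc held 2 each, and Fosb and Jund 1 each. Since long regions hold more copies, the density is the better measure. Cyr61 had 7.19 copies per kilobase, Fos 4.91, Myc 4.52 and Junb 4.14, and the median of the 10 genes was 2.89, against 1.34 over the genes with a row. Of the 10 genes, 8 lay above that median, and Fosb at 0.472 and Ier2 at 0 lay below it. The longer element TTATTTATT was present in Fos alone of the 10, and in 7.46% of the genes with a row.

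Stretches of 30 bases were examined in Fos, Fosb, Jun, Junb, Jund, Atf3, Myc and Cyr61. Ier2 holds no copy, and Egr1, with 2 copies, was not examined in this way. The 30 bases with the most pentamers are shown for Fos, Jun and Cyr61, which of the 8 genes examined hold 2 or more in such a stretch. ATTTA is in capitals, and the bases are given as DNA letters.

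Fos, chr12:86818050-86818079, plus strand: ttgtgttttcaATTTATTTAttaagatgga
Jun, chr4:94715899-94715928, minus strand: gatcATTTAtaatcataggaaagATTTAgt
Cyr61, chr3:145309960-145309989, minus strand: agagaATTTATTTAtaaaattaatcATTTA

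In Fos and in Cyr61, 2 copies share a base and so lie in one run, and in Cyr61 the third follows within the same 30 bases. In Jun the 2 copies are apart. The stretch of Fos starts at base 642 of the 3' untranslated region, that of Cyr61 at base 641 and that of Jun at base 1030.

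**Figure D4:**
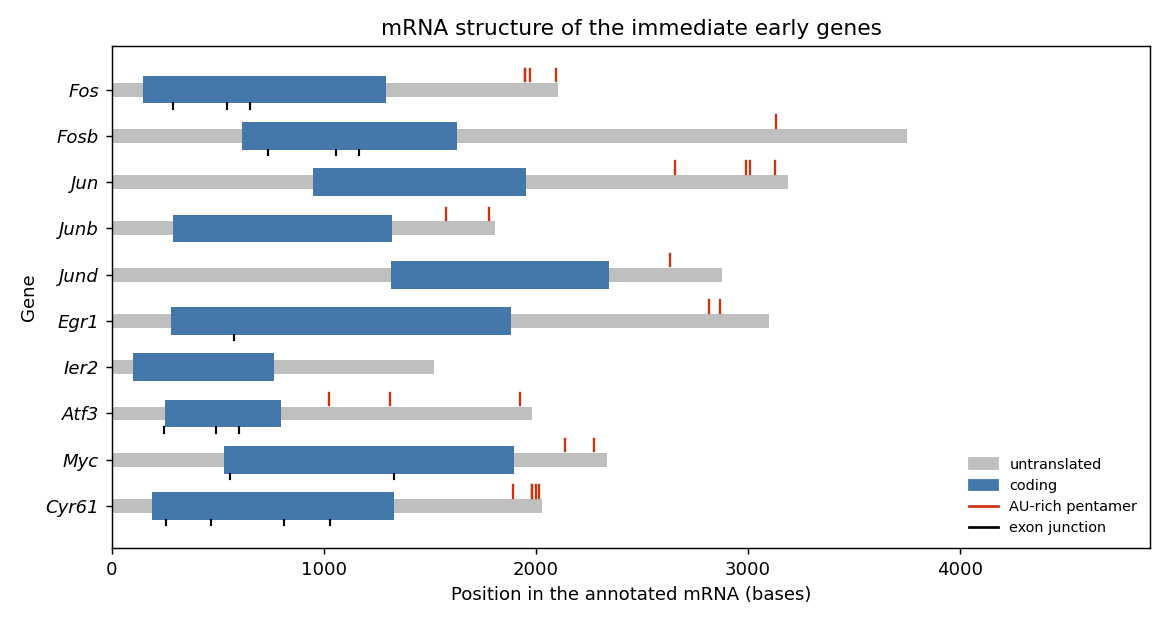
Annotated mRNAs of the 10 genes drawn to scale in bases, with coding sequence in blue, untranslated regions in grey, exon junctions as black ticks and each ATTTA pentamer of the 3' untranslated region as a red tick. Jun, Junb, Jund and Ier2 have no junction, and Cyr61 carries the most pentamers, 5.

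Of 30 further immediate early genes, 16 had a row, with a median of 4.48 CPM per kilobase and a range from 1.11 to 13.9, against a median of 3.66 and a range from 0.382 to 12.0 for the 8 genes above. Klf10, a Krüppel-like factor, was the highest at 13.9 CPM per kilobase and 42.2 CPM. Ier5 was the lowest at 1.11 CPM per kilobase, close to Klf2 at 1.13. Ctgf, which like Cyr61 encodes a matricellular protein, had 2.95 CPM per kilobase, against 4.87 for Cyr61. Dusp1, a phosphatase that inactivates MAP kinases, had 7.44 CPM per kilobase, and 7 of the 16 lay above the median of all rows.

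Among 19 other genes of the AP-1, Atf, Creb and C/EBP group, 6 had a row, and the Fos relatives Fosl1 and Fosl2 did not. Atf4, a factor of the integrated stress response, had the highest level per kilobase at 54.8, which is above each of the 8 genes, and Atf6, a sensor of unfolded protein in the endoplasmic reticulum, had 15.7. Cebpb had 18.9 CPM per kilobase and Cebpd 2.07. Jdp2, which encodes a partner of Jun, had the lowest at 1.18, next to Atf3 at 1.16.

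Of 18 upstream factors and kinases, 10 had a row. Serum response factor itself had none, while its partners Elk3 and Elk4 had 2.28 and 9.31 CPM per kilobase and Mkl1 had 1.13. The kinases ran from 0.432 CPM per kilobase for Mapk7 to 29.6 for Map2k2, with Map2k1 at 18.8 and Mapk14, which encodes p38, at 18.9. Of 11 genes for partners and relatives of Myc, 6 had a row, and Max, the partner that Myc needs to bind DNA, had 10.6 CPM per kilobase. Mlx was the highest of these at 22.7 and Mxd1 the lowest at 1.46. Of 8 genes of the Yap and Tead pathway, of which Cyr61 is a known target, 5 had a row. Yap1 was the highest of these at 10.6 CPM per kilobase and Tead1 the lowest at 0.851.

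A mean over whole liver does not say which cells carry these mRNAs, and fewer expressing cells and less RNA per cell cannot be told apart. Of 7 Kupffer cell and macrophage symbols, 4 had a row, from 5.15 CPM per kilobase for Marco to 74.8 for Clec4f, with a median of 42.3. Adgre1, counted among those without a row, is another name of Emr1, which had one. Of 4 endothelial genes, 3 had a row, from 8.52 for Pecam1 to 16.4 for Stab2. All 4 stellate cell genes had a row, from 1.03 for Col1a1 to 11.1 for Reln, with a median of 3.71. Of 3 genes looked up for lymphocytes, Cd3e and Cd79a had no row. The third, Ptprc, which is not particular to lymphocytes, had 3.93. The part of each cell type in the levels of the immediate early genes was not tested.

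**Figure D5:**
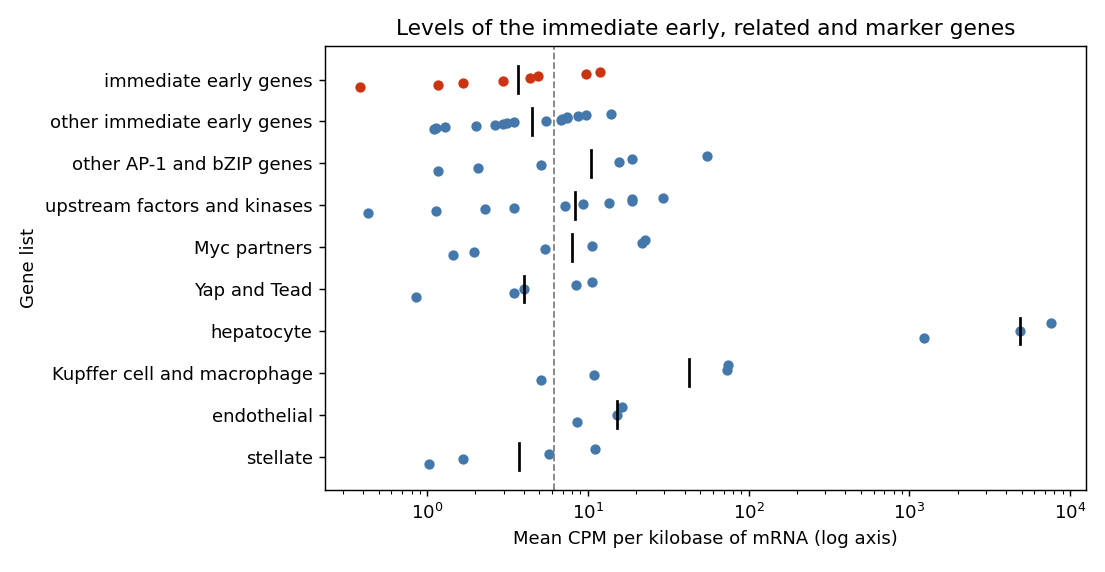
Mean CPM per kilobase of mRNA on a log axis for the 8 immediate early genes in red and for the genes with a row of 9 other lists in blue, with a black bar at the median of each list and a dashed line at the median of all 7000 rows. The 8 genes run from 0.382 to 12.0 CPM per kilobase and overlap the other immediate early genes, and the 3 hepatocyte genes stand above all others.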

How the data were processed

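Liver RNA of 4 mice was sequenced by the authors, who aligned the reads with Bowtie to RefSeq mRNAs of mm9 (1 entry a gene, longest isoform), kept unique alignments with up to 2 mismatches, and ran edgeR on genes above 1 CPM in at least 3 samples. In alignments to coding sequences the authors left out codons at both ends. Whether the deposited values rest on such alignments or on whole mRNAs is not stated. No source used here gives tool versions. The deposited log2 mean CPM and mRNA lengths were used as the authors made them. Any prior count that edgeR added to that mean is not given, and would raise low values such as that of Egr1. The deposited table also holds 3 columns of the authors' own comparison of 0.1 Se with 0 Se, a log2 fold change, a p-value and an FDR, which were not used. The count model set in case of values per mouse could not be run.

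CPM was 2 to the power of the deposited value, divided by length in kilobases where genes were compared. Percentiles count the other rows that are lower. Of the 7000 symbols, 6768 were matched to coding transcripts of GENCODE vM1 on NCBIM37, taking the transcript nearest in length. Promoter sequences are from RefSeq (GRCm38.p6) and were placed on NCBIM37 by exact match of all their bases. Their motifs were searched on both strands in the 250 bases before the start, with a search tested on simulated data. Python 3.11.15, numpy 2.4.6, pandas 2.3.3 and matplotlib 3.10.9 were used. The genes, motifs and gene lists were chosen with earlier results of these data known, every one of the 10 genes is described, and of the lists the highest, the lowest and members with a role beside the 10 genes are named, the last chosen after their values were seen, as was the search for ATTTA and exon numbers.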

Additional observations from a re-analysis of the deposited data

How the results depend on the processing

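With 1 mean per gene, leaving out a mouse, another normalization and a paired fit could not be made. The order of the 8 genes rests on how length is treated. In CPM not divided by length, 4 of the 8 kept their place (Cyr61, Fos, Atf3 and Egr1), and with levels per kilobase of coding sequence 1 did (Egr1), while with the annotated transcript length all 8 did. Egr1 was lowest under each of these 3 alternatives. The median share of other genes below the 8 was 36.3%, and became 29.2% in CPM and 32.3% among genes of similar length, within 1.5 times. Leaving out rows under 1 CPM gave 36.1%. For single genes, the share below moved beyond its 95% exact binomial interval in 6 of 8 genes in CPM and in 8 of 8 among genes of similar length, and in none with rows under 1 CPM left out. That interval served only as a limit for calling a move. It covers neither variation between mice nor error of measurement. In CPM it moved by over 1.5 times in Ier2, from 40.7% to 25.5%, in Atf3, from 14.5% to 8.77%, and in Egr1, from 2.67% to 1.0%. The range from highest to lowest gene, the number of genes with a row when synonyms were allowed, and the number of promoters with each motif in 100 bases moved less than the limits set for them, with TGACG in 4 of 7. The unknown depth limits Egr1 and Atf3 most, since their means are the lowest.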
